A study of Mus musculus with 26 samples.

Results

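Tip cell and vessel guidance genes, 10 in number, were followed in sorted endothelial cells of mice exposed to interferon gamma (IFNγ). They are the receptor genes Unc5b, Nrp2, Cxcr4, Flt4, Plxnc1, Plxna2, Ramp2 and Ramp3 and the genes of the secreted proteins Pgf and Igfbp3. A member was every probe set of the array whose annotation names 1 of these symbols and no other. This gave 140 of the 53857 probe sets with a single symbol, and 10 of 5109 genes. A filter on low values was passed by 131 of the 140 probe sets and by all 10 genes, through the brightest probe set of each. The probe sets left out were 8 of the 26 of Plxnc1 and 1 of the 6 of Ramp3. The genes lie on chromosomes 1 (Nrp2, Cxcr4, Plxna2), 10 (Unc5b, Plxnc1), 11 (Flt4, Ramp2, Ramp3, Igfbp3) and 12 (Pgf), and the table used here covers little outside chromosomes 1 and 10 to 13.

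Endothelial cells (CD31+/CD146+) of female mice were isolated by cell sorting after enzymatic digestion, and RNA of 5000 to 15000 cells was measured on 26 arrays in 9 groups. In MCA313 tumours, endothelium was taken with the tumour cells uninduced (0 h, 3 arrays) and 24 h (2 arrays) or 48 h (2 arrays) after induction of their IFNγ transgene. These mice, PIG-Pdgfb-Cre-IFNγ-del, carried the IFNγ receptor on endothelial cells alone, through a Cre driven by the Pdgfb gene, so that other cells could not respond directly. J558L tumours grew in Rag-/- mice, which have the receptor on all cells and lack mature T and B cells. Tumour endothelium was taken there with IFNγ-GFP induced for 24 h (3 arrays) and at 0 h (2 arrays), and kidney endothelium likewise (3 arrays each). 16.113 tumours, also in Rag-/- mice, were sampled 120 h after transfer of tumour-specific T cells that were IFNγ competent (3 arrays) or IFNγ deficient (5 arrays), so that both groups had received T cells. The mice were 4 to 6 months old, or 3 to 4 months for 16.113, and tumours measured about 1 cm. The labels number the replicates without saying whether each is its own animal, so p-values measure the spread between these samples, which may be technical.

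In sprouting vessels, a tip cell leads each new branch and stalk cells follow it. Tip cells read guidance cues through receptors shared with growing axons: Unc5b is a receptor for netrins, Nrp2 binds VEGF-C and class 3 semaphorins, Flt4 (VEGFR-3) is the receptor of VEGF-C and VEGF-D, and plexins are the signalling receptors of semaphorins. Cxcr4 receives the chemokine Cxcl12, Ramp2 and Ramp3 pair with the calcitonin receptor-like receptor to make adrenomedullin receptors, Pgf is a ligand of VEGFR-1, and Igfbp3 binds insulin-like growth factors outside the cell. Cells exposed to IFNγ make interferon regulatory factors, which bind DNA elements called ISRE.

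The upstream sequences of 9 of the 10 genes were available from RefSeq (GRCm38.p6), as 10 windows of the 250 bases before a start of transcription. They were searched on both strands for ISRE (GAAA, any 2 bases, GAAA). Of the 10 windows 1 held an ISRE, against 2.98% of all 32851 windows in the table. That window was that of Plxnc1, described below in kidney, and the ISRE began 118 bases before the start used, inside the annotated span of the gene. Shown are 30 bases around it on the minus strand (chr10:94944944-94944973), with the ISRE in capitals, and the whole windows of the 2 members with the clearest decreases, Unc5b (chr10:60831582-60831831, minus strand) and Cxcr4 (chr1:128592300-128592549, minus strand), which hold no ISRE. A match is a run of letters and no measured site.

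Plxnc1: ttcacaatggGAAAGTGAAAcgcacaagcg

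Unc5b: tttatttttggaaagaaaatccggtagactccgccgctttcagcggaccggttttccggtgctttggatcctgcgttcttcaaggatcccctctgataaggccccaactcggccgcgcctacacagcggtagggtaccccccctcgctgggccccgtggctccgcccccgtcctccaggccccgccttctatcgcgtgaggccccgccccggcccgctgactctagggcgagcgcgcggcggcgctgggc

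Cxcr4: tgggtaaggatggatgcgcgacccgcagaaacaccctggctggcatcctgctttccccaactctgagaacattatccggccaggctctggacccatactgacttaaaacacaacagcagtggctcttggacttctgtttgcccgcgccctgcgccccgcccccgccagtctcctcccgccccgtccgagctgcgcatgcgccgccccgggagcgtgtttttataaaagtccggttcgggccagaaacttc

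All values are the deposited log2 expression values, and changes are differences of group means on that scale, given ± the standard error of limma. The 4 sets of arrays (MCA313, J558L tumour, J558L kidney, 16.113) behaved as separately normalized: between 1.24% and 7.59% of values recurred exactly between arrays of 1 set, and at most 0.006% between sets. Array medians ran from 5.62 to 5.88 in the MCA313 and 16.113 sets and from 6.33 to 6.46 in the J558L sets. Changes were therefore formed within a set, and levels of different sets stand side by side without a test. A gene is given first by its brightest probe set, then by all of them and their mean, because probe sets of 1 gene read different parts of its transcripts and can differ. Called means an adjusted p under 0.05 over all genes or probe sets tested. With so few arrays a group, a lack of overlap between groups can arise by chance. The share of all genes without overlap is not given here, so a lack of overlap describes the values and is no test. A lower value in a bulk sample may be fewer cells of a kind or less RNA per cell, which cannot be told apart here.

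The sorted cells carried endothelial markers: Pecam1, which encodes the sorting marker CD31, had group means of 13.51 to 13.95. Ptprb had group means of 12.76 to 13.77 and Icam2 of 11.26 to 12.91. Fibroblast markers were read too. Col1a1 had group means of 10.34 to 10.99. In 16.113 tumours Dcn read 9.46 to 12.03 with competent and 11.74 to 12.34 with deficient T cells, against group means of 5.99 to 8.82 elsewhere. Lum lay below the array medians in every group. The part of such cells in the levels of the members was not tested. Ifi205, an interferon-inducible gene, was called higher in all 5 comparisons with a control, by 4.28 and 4.27 at 24 h and 48 h in MCA313 tumours, 3.17 in J558L tumours, 3.49 in kidney and 1.46 in 16.113 tumours. Of the 6 IFNγ-responsive genes measured as a check, 3 and 4 were called at 24 h and 48 h in MCA313, 2 in J558L tumours, 4 in kidney and 5 in 16.113, all higher. Replicate 1 at 0 h stood apart from replicates 2 and 3 in MCA313 tumours: Igtp, an interferon-inducible GTPase, read 11.06 in it, against 12.55 and 12.73, Irgm1, another such GTPase, 9.59 against 11.03 and 11.44, and the pericyte marker Rgs5 9.58 against 11.37 and 12.11. For 8 leukocyte markers on the table, the summed level (the log2 of the sum of linear values) was 10.7 to 10.8 at 24 h and 10.3 to 10.9 at 48 h in MCA313 tumours, against 10.3 to 10.9 at 0 h. It was 10.9 to 11.4 at 24 h against 11.0 to 11.2 at 0 h in J558L tumours, 10.8 to 11.1 against 10.4 to 11.1 in kidney, and 10.9 to 11.3 with competent against 11.1 to 12.0 with deficient T cells. None of the 7 tested was called in any of the 5 comparisons (limma). Prox1, the defining transcription factor of lymphatic endothelium, read 8.56 to 11.01 with competent and 9.05 to 10.42 with deficient T cells in 16.113 tumours, 8.09 to 8.72 at 24 h and 8.69 to 8.87 at 0 h in kidney, and 5.25 to 7.59 in the MCA313 and J558L tumours. Its part in the levels of Flt4 and Nrp2, which lymphatic vessels also express, was not tested.

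By the brightest probe set, members were called in kidney and in 16.113 tumours. In MCA313 tumours none of the 10 was called at 24 h, where 0.684% of all genes were, or at 48 h, where 1.37% were. None was called in J558L tumours, where 0.547% of all genes were. In kidney 1 member was called, Cxcr4, lower, where 3.17% of all genes were called and 1.53% lower. In 16.113 tumours 2 were called, Unc5b and Igfbp3, both lower, where 7.36% of all genes were called and 4.81% lower. At an unadjusted p under 0.05, the members numbered 2 and 3 at 24 h and 48 h in MCA313, 2 in J558L tumours, 3 in kidney and 3 in 16.113, and all of these were lower. Such a p was met by 10.9%, 12.8%, 8.14%, 13.7% and 21.5% of all genes in these comparisons.

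**Figure D1:**
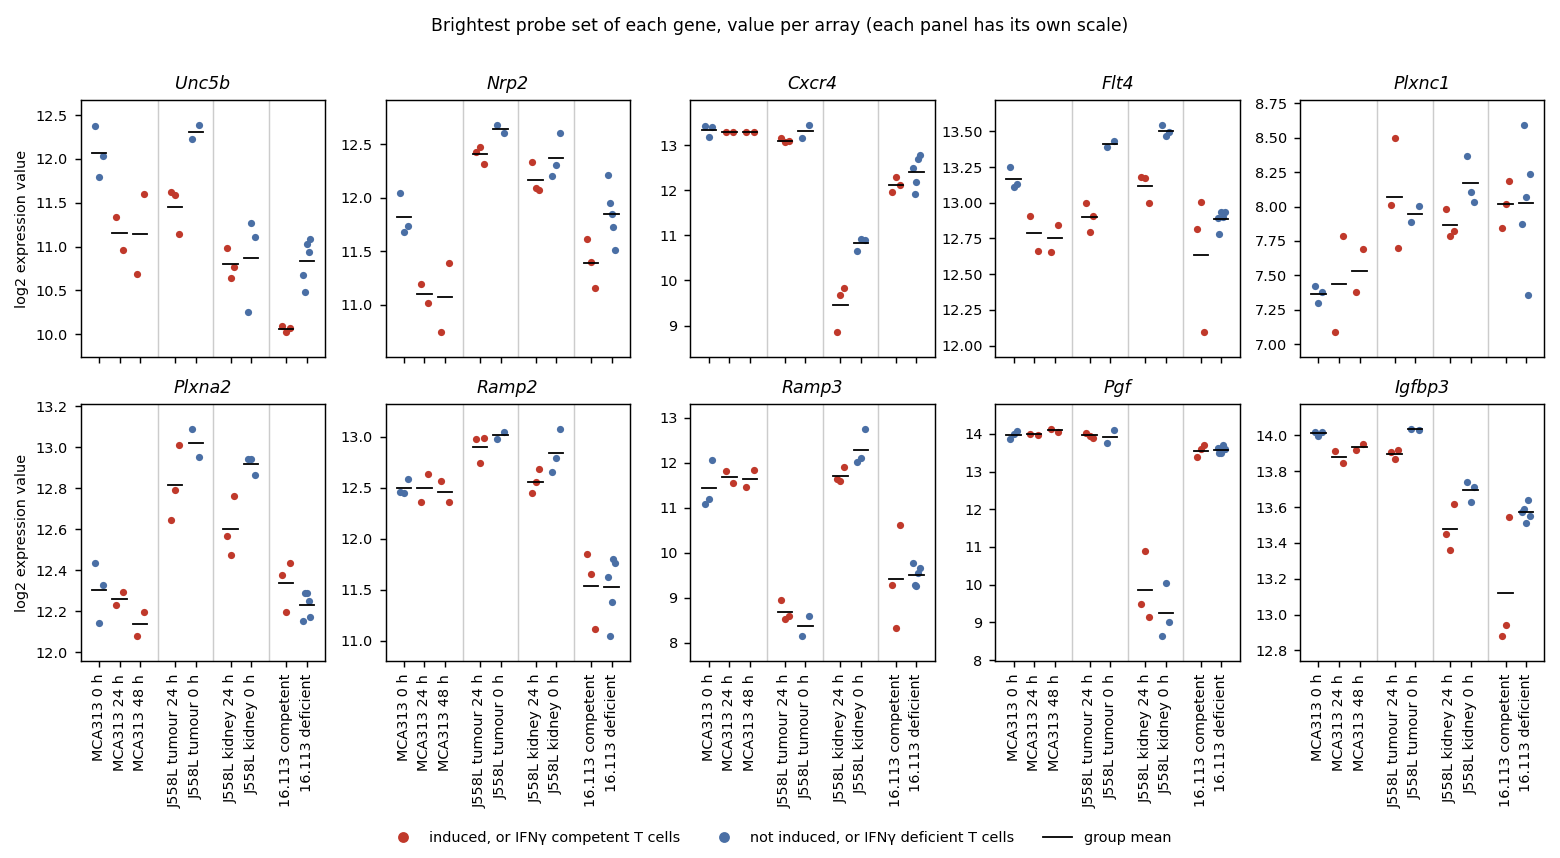
Log2 expression value of the brightest probe set of each of the 10 genes in each of the 26 arrays, one panel a gene with its own scale, groups along the horizontal axis and the mean of each group as a bar. Grey lines divide the 4 separately normalized sets. Unc5b reads 10.02 to 10.10 with IFNγ competent T cells in 16.113 tumours, below all 5 arrays with deficient T cells, and Cxcr4 reads 8.85 to 9.84 in kidney at 24 h, below the 10.66 to 10.92 at 0 h.

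Unc5b, the netrin receptor, passed the test as lower in 16.113 tumours, and in the other tumour models its arrays under IFNγ all lay below their controls. In MCA313 tumours its brightest probe set read 12.38, 11.80 and 12.03 at 0 h, 11.34 and 10.96 at 24 h, and 10.68 and 11.60 at 48 h. Every array at 24 h and 48 h lay below every array at 0 h. The changes of -0.92 ± 0.29 at 24 h and -0.93 ± 0.29 at 48 h were not called (adjusted p = 0.167 and 0.146), and both share the 0 h arrays.

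In J558L tumours Unc5b read 11.63, 11.59 and 11.14 at 24 h, against 12.23 and 12.38 at 0 h. The groups did not overlap, and the change was -0.85 ± 0.29, not called (adjusted p = 0.283). In kidney of J558L-bearing mice it read 10.99, 10.64 and 10.77 at 24 h, against 10.25, 11.27 and 11.10 at 0 h. There the groups overlapped and the change was -0.08 ± 0.26. The difference of the 2 responses, tumour minus kidney, was -0.78 ± 0.39 with an adjusted p of 0.989, so a response particular to the tumour was not shown.

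In 16.113 tumours Unc5b read 10.10, 10.02 and 10.07 with competent T cells, against 10.67, 10.48, 11.03, 10.94 and 11.09 with deficient T cells. The groups did not overlap and the competent arrays lay close together. The change of -0.78 ± 0.23, 1.71-fold lower, was called (adjusted p = 0.0463). Of the 8 fits without 1 array it held in 2, those without deficient replicate 1 or 2 (adjusted p = 0.0499 and 0.0343), and was lost in the others, with adjusted p up to 0.117. It was also lost with array weights (0.206), with quantile normalization (0.0546) and with the 16.113 arrays alone (0.12).

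Over its 15 probe sets Unc5b was lower in all 15 at 24 h and at 48 h in MCA313 tumours, in all 15 in J558L tumours and in all 15 in 16.113 tumours. The median changes were -1.27, -1.06, -0.77 and -0.78. In kidney 9 of the 15 were lower, with a median of -0.16. Among the 2353 genes with at least 10 probe sets, 2.76%, 2.17%, 2.51% and 1.57% had all of them lower in those 4 tumour comparisons, and 2.04% in kidney. No such share is given for genes with fewer probe sets, as for Cxcr4, Ramp3, Pgf and Igfbp3. Probe sets of 1 gene share the same RNA and are no replicates.

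The mean of the 15 probe sets brought Unc5b past the test in MCA313 tumours as well. It read 10.31, 9.60 and 9.86 at 0 h, 8.96 and 8.51 at 24 h, and 8.25 and 9.11 at 48 h, again without overlap. By this measure the change was -1.19 ± 0.28 at 24 h (adjusted p = 0.0203) and -1.24 ± 0.28 at 48 h (adjusted p = 0.0129), 2.28-fold and 2.36-fold lower. Calls by the mean were made for 2.8% and 3.1% of all genes. Each held in 3 of 5 fits without 1 array and was lost without 0 h replicate 1, the array that stood apart (-0.99 and -1.04, adjusted p = 0.131 and 0.0982), without 24 h replicate 2 (0.332) or 48 h replicate 1 (0.406), and when MCA313 was fitted by itself (0.101 and 0.0787).

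By the mean of its probe sets Unc5b was also lower in 16.113 tumours, where 9.35% of all genes were called. It read 7.98, 7.95 and 7.78 with competent T cells, against 8.61, 8.22, 8.87, 9.08 and 8.77 with deficient T cells. The change was -0.81 ± 0.22 (adjusted p = 0.0244), and it held in 4 of 8 fits without 1 array, being lost without competent replicate 2 or 3 (0.0561 and 0.109) or deficient replicate 3 or 4 (0.0533 and 0.0584). In J558L tumours the change of the mean was -0.79 ± 0.28 (adjusted p = 0.198), where 2.12% of all genes were called. Probe sets 17241146 and 17241150 were called by themselves in 16.113 tumours, at -1.38 ± 0.38 and -1.15 ± 0.26 (adjusted p = 0.0474 and 0.0186).

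**Figure D2:**
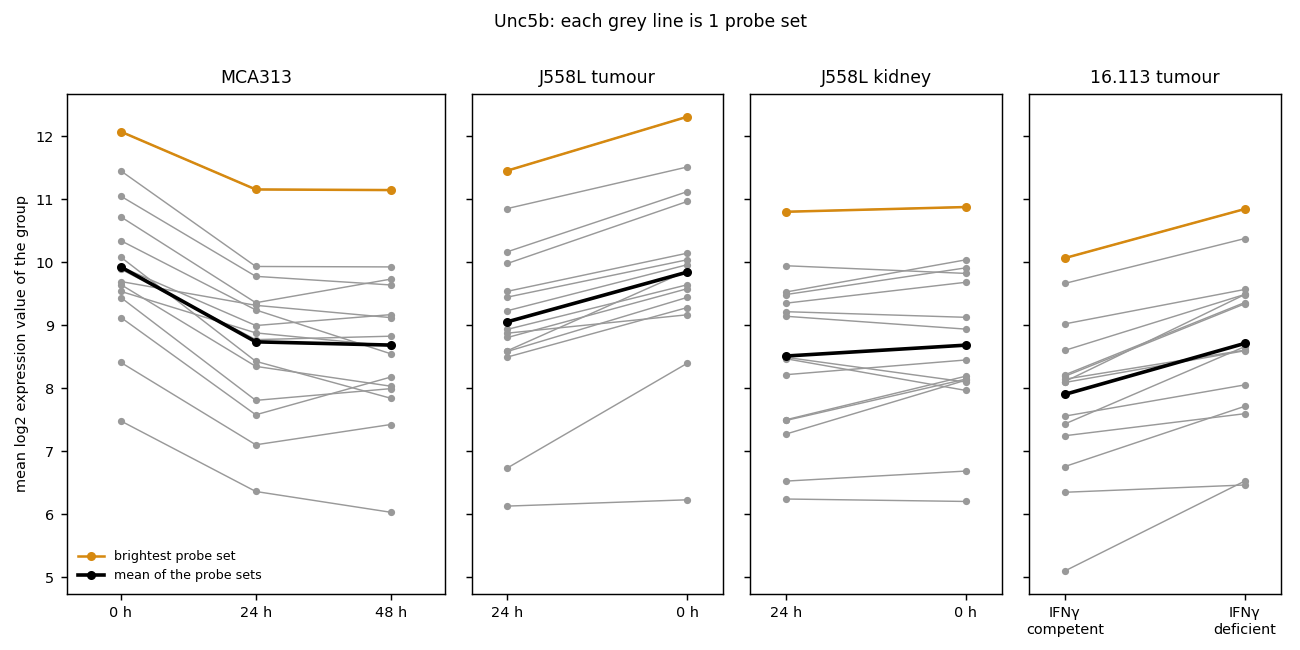
Mean log2 expression value of each of the 15 Unc5b probe sets in the groups of MCA313 (0, 24 and 48 h), J558L tumour and J558L kidney (24 h and 0 h) and 16.113 (IFNγ competent and deficient T cells). Grey lines are single probe sets, the orange line the brightest and the black line their mean. All 15 lines lie lower under IFNγ in the 3 tumour panels, whereas 9 of 15 do so in kidney.

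Markers of dividing cells stood lower under IFNγ in summed level in every model, kidney included, without overlap of the groups. The summed level of 7 proliferation genes was 12.3 to 13.0 at 0 h, 11.8 in both arrays at 24 h and 11.7 to 12.1 at 48 h in MCA313 tumours. It was 12.1 to 12.5 at 24 h against 13.6 to 14.0 at 0 h in J558L tumours, 10.6 to 11.2 against 11.3 to 11.9 in kidney, and 10.5 to 12.2 with competent against 12.6 to 13.3 with deficient T cells. Of these 7 genes none was called in MCA313 or J558L tumours, Rrm2 was called lower in kidney (-1.87), and Birc5, Rrm2 and Top2a were called lower in 16.113 tumours (-3.11, -1.94 and -3.15). The sum follows the brightest of the 7 genes, and not all went this way. Cenpf had group means of 7.81, 8.13 and 7.92 at 0 h, 24 h and 48 h in MCA313 tumours. It stood at 8.47 at 24 h against 7.94 at 0 h in J558L tumours, 8.63 against 8.51 in kidney, and 8.18 in both 16.113 groups. Aurkb stood at 9.73, 9.90 and 10.23 in MCA313 tumours, and lower under IFNγ in the other models. The part of proliferation in the changes of the members was not tested.

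Nrp2, the co-receptor for VEGF-C and semaphorins, had changes below 0 at its brightest probe set in all 5 comparisons, with no call. In MCA313 tumours it read 12.04, 11.68 and 11.74 at 0 h, 11.19 and 11.01 at 24 h, and 10.74 and 11.39 at 48 h, with no overlap of later arrays with those at 0 h. The changes were -0.72 ± 0.22 and -0.75 ± 0.22 (adjusted p = 0.138 and 0.0978). In 16.113 tumours it read 11.62, 11.40 and 11.15 with competent T cells, against 12.21, 11.96, 11.85, 11.73 and 11.51 with deficient T cells. There the groups overlapped by 1 array and the change was -0.46 ± 0.17 (adjusted p = 0.117). In J558L tumours and kidney it was -0.24 and -0.21.

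Of the 20 probe sets of Nrp2, 19 were lower at 24 h and 19 at 48 h in MCA313 tumours, 17 in J558L tumours, 18 in kidney and 17 in 16.113 tumours. The median changes ran from -0.57 to -0.35. In 16.113 tumours 1 was called, probe set 17213557, which read 9.32, 7.80 and 8.28 with competent T cells, against 9.96, 9.68, 9.55, 9.72 and 9.11 with deficient T cells (-1.14 ± 0.30, adjusted p = 0.0360). The groups overlapped there by 1 array of each. Nrp2 kept a called probe set in 2 of the 8 fits without 1 array, those without competent replicate 1 or deficient replicate 5.

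Flt4, the VEGF-C receptor, read between 12.09 and 13.54 over the 26 arrays, and its mean under IFNγ stood below the control mean in each comparison, with no call. In J558L tumours its brightest probe set read 13.00, 12.80 and 12.91 at 24 h, against 13.39 and 13.43 at 0 h. In kidney it read 13.18, 13.17 and 13.00 at 24 h, against 13.54, 13.47 and 13.49 at 0 h. In both tissues the groups did not overlap, with changes of -0.51 ± 0.19 and -0.39 ± 0.17, neither called (adjusted p = 0.388 and 0.309).

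In MCA313 tumours Flt4 read 13.25, 13.11 and 13.13 at 0 h, 12.91 and 12.66 at 24 h, and 12.66 and 12.84 at 48 h, also without overlap. The changes of -0.38 and -0.42 were not called. With competent T cells in 16.113 tumours it read 12.81, 13.00 and 12.09, against 12.78 to 12.94 in the 5 arrays with deficient T cells, so that the spread lay in 1 competent array. Of its 29 probe sets 25, 25, 26, 26 and 22 were lower at 24 h and 48 h in MCA313, in J558L tumours, in kidney and in 16.113, and none was called. Competent replicate 3, the array at 12.09, also stood apart for some other genes. Rgs5 read 6.20 in it, against 8.12 and 8.71, and Prox1 8.56 against 10.42 and 11.01. Ptprb did not differ so (12.87, against 12.80 and 12.74), and for Top2a replicate 1 stood apart (10.94, against 7.47 and 8.07).

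Cxcr4, the receptor of Cxcl12, was lower in kidney endothelium at 24 h and high in all tumour endothelium. In kidney its brightest probe set read 8.85, 9.69 and 9.84 at 24 h, against 10.66, 10.92 and 10.90 at 0 h. All 3 arrays at 24 h lay below all at 0 h. The change was -1.37 ± 0.23, 2.58-fold lower, and was called (adjusted p = 0.00143). It was called in each of the 6 fits without 1 array, with adjusted p up to 0.0101, but not when the kidney arrays were fitted alone (adjusted p = 0.0772). In the same kidney arrays the summed level of 3 pericyte markers was 11.3 at 24 h, against 11.8 to 12.0 at 0 h, without overlap, and none of the 3 was called (Des -0.76, Rgs5 -0.64, Rgs4 -0.11). Their part in the kidney changes was not tested.

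All 3 probe sets of Cxcr4 were lower in kidney, by -0.79 to -1.37, and 2 of them were called, where 1.32% of all probe sets were. By the mean of the 3 the change was -1.12 ± 0.20 (adjusted p = 0.000963), and this stayed called with the kidney arrays alone (adjusted p = 0.00872). In tumours the brightest probe set of Cxcr4 had group means of 13.29 to 13.33 in MCA313, 13.10 at 24 h and 13.31 at 0 h in J558L, and 12.12 with competent and 12.42 with deficient T cells in 16.113. Its changes there lay between -0.30 and -0.04 and none was called. The difference of the J558L responses, tumour minus kidney, was +1.17 ± 0.34, with an unadjusted p of 0.00267 and an adjusted p of 0.327, so it did not pass.

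Plxnc1, a receptor of semaphorin 7A, was the only member with calls of higher expression, and these came in kidney at 24 h. Its brightest probe set, 17244463, did not show this: it read 7.98, 7.79 and 7.82 at 24 h, against 8.37, 8.10 and 8.03 at 0 h, a change of -0.30 ± 0.25. Of the 26 probe sets the other 25 were higher in kidney at 24 h, with a median change of 1.81 over all 26. In the tumour comparisons 15 to 18 of the 26 were higher, with medians of 0.06 to 0.16.

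In kidney 5 probe sets of Plxnc1 had an adjusted p under 0.05. Of these, 3 passed the filter on low values only through the kidney arrays at 24 h, where they were high, so their calls carry no weight. They were 17244462, 17244465 and 17244468, and 17244465 read 7.63, 7.24 and 7.42 at 24 h, against 3.63, 4.56 and 4.30 at 0 h. The other two passed the filter without those arrays. Of them, 17244446 read 9.64, 9.40 and 8.46 at 24 h, against 8.56, 5.09 and 4.75 at 0 h, with 1 array at 0 h inside the range at 24 h (+3.03 ± 0.74, adjusted p = 0.0434). Probe set 17244467 reached 9.52 at 24 h, against 5.39, 5.78 and 6.48 at 0 h, without overlap (+3.37 ± 0.74, adjusted p = 0.0228).

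Most 0 h values of the called probe sets lay below the array medians of 6.33 to 6.40, where an array reads little above its background, and the size of such a change is uncertain. A probe set above its array's median in all arrays of a group was found 14 times of 26 in kidney at 24 h, against 2 times of 26 in kidney at 0 h, and 3 to 4 times of 26 in each tumour group. Without 1 array, 1 to 5 of the 26 were called, the lowest without 24 h replicate 2, and none when the kidney arrays were fitted alone. These counts can include the 3 probe sets whose calls carry no weight. How the other 2 fared by themselves is not given, so the counts do not show how stable their calls were.

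By the mean of its 26 probe sets Plxnc1 read 7.25, 7.11 and 5.89 in kidney at 24 h, against 5.45, 4.42 and 4.70 at 0 h. The groups did not overlap, and 24 h replicate 3 lay nearest to the 0 h arrays. The change was +1.89 ± 0.27 (adjusted p = 9.18e-05), where 5.93% of all genes were called. The 0 h values lie below the array medians, so no fold is given. It was called in each of the 6 fits without 1 array, with adjusted p up to 0.00125, and with the kidney arrays alone (adjusted p = 0.0354).

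In J558L tumours the mean of the Plxnc1 probe sets read 4.49, 4.75 and 4.58 at 24 h, against 4.40 and 4.66 at 0 h, and the groups overlapped. The responses of tumour and kidney differed by -1.81 ± 0.40, tumour minus kidney (adjusted p = 0.0485), where 0.342% of all genes were called. Of the 11 fits without 1 array it held in 2, those without kidney 0 h replicate 1 or kidney 24 h replicate 3 (adjusted p = 0.0135 and 0.000994), and adjusted p reached 0.215 without tumour 0 h replicate 1. It was also lost with quantile normalization (0.0536), the replicate block (0.0507), the median of the probe sets (0.12) and the J558L arrays alone (0.174), and both tumour groups lie below their array medians. By the brightest probe set the difference was +0.43 ± 0.38. In kidney the leukocyte marker Ptprc read 8.44, 8.17 and 8.94 at 24 h, against 8.20, 7.75 and 7.46 at 0 h (+0.71, not called), and Lyz2 changed by -0.96, not called. Their part in the level of Plxnc1, which leukocytes can also express, was not tested.

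**Figure D3:**
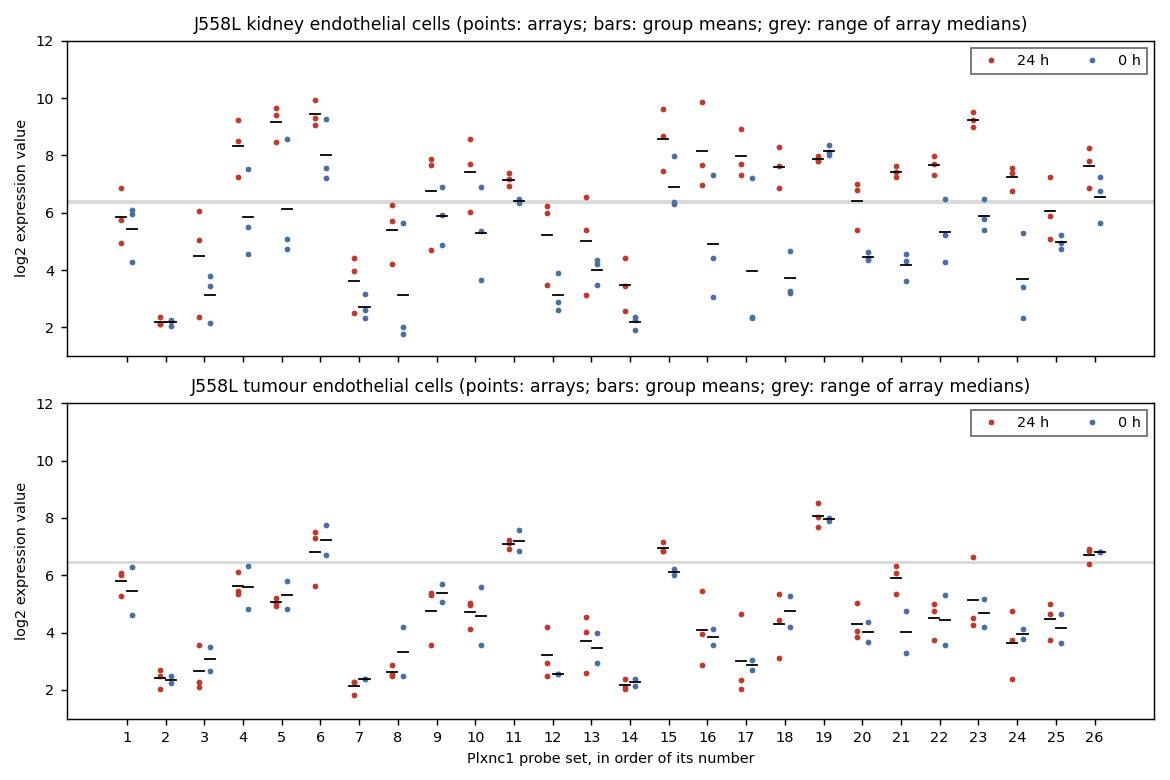
Log2 expression values of the 26 Plxnc1 probe sets, in order of their numbers, in kidney (above) and J558L tumour (below) endothelium at 24 h and 0 h, with arrays as points and group means as bars. The grey band is the range of the array medians. In kidney 25 of 26 means are higher at 24 h, the exception being the brightest probe set, whereas in the tumour 15 of 26 are.

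Plxna2, a plexin that signals for class 3 and class 6 semaphorins, was high in every group, with values of 12.08 to 13.09. In kidney it read 12.56, 12.47 and 12.76 at 24 h, against 12.95, 12.94 and 12.86 at 0 h, without overlap. The change was -0.32 ± 0.13, not called (adjusted p = 0.266). All 18 of its probe sets were lower in kidney, with a median of -0.53, and their mean changed by -0.49 ± 0.16 (adjusted p = 0.0712). In 16.113 tumours 13 of 18 were higher, with a median of 0.08.

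Ramp2 and Ramp3, the partners of the adrenomedullin receptor, were not called in any comparison. The values of Ramp2 lay between 12.36 and 13.07 outside the 16.113 tumours and between 11.04 and 11.85 in them, and its changes between -0.28 and +0.02. In kidney all 10 of its probe sets were lower, with a median of -0.25. A further 8 probe sets that the annotation shares between Ramp2 and another gene were not used.

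Ramp3 varied more between the sets than within them. Its brightest probe set read 8.95, 8.54 and 8.60 at 24 h in J558L tumours, against 8.15 and 8.60 at 0 h. In kidney of J558L-bearing mice it read 11.65, 11.59 and 11.91 at 24 h, against 12.01, 12.10 and 12.75 at 0 h. The kidney groups did not overlap, and the change was -0.57 ± 0.38 (adjusted p = 0.580). In MCA313 tumours Ramp3 lay between 11.08 and 12.07, and in 16.113 tumours it read 9.29, 8.33 and 10.62 with competent T cells, against 9.26 to 9.78 with deficient T cells. The position of Ramp3 within its own array shows the same order without use of a shared scale: at 0 h it lay at percentile 71.9 to 76.4 of all probe sets in J558L tumours and 98.4 to 99.5 in kidney.

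Pgf, the ligand of VEGFR-1, was near the top of the scale in all tumour endothelium and lower in kidney. It read 13.75 to 14.13 in the MCA313 and J558L tumours and 13.38 to 13.71 in 16.113, where the highest value in the whole table was 14.34. In kidney it read 9.50, 10.89 and 9.15 at 24 h, against 8.63, 10.05 and 9.02 at 0 h. The kidney groups overlapped, and the change was +0.61 ± 0.33 (adjusted p = 0.438). All 7 of its probe sets were higher at 24 h and 48 h in MCA313, in J558L tumours and in kidney, with medians of 0.31 to 0.46, and 6 of 7 in 16.113, and none was called. The brightest changed by only +0.02 and +0.12 at 24 h and 48 h in MCA313, +0.03 in J558L tumours and -0.03 in 16.113. No share over all genes is given for genes with so few probe sets, so the shared direction is a description.

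Igfbp3, which binds insulin-like growth factors, was lower in 16.113 tumours with competent T cells. Its brightest probe set read 12.88, 12.94 and 13.54 with competent T cells, against 13.57, 13.59, 13.51, 13.64 and 13.55 with deficient T cells. Competent replicate 3 lay among the deficient arrays and the other two below them. The change of -0.45 ± 0.13, 1.37-fold lower, was called (adjusted p = 0.0353), but in 1 of the 8 fits without 1 array only, the one without competent replicate 3 (-0.66, adjusted p = 0.00185). In the other 7 the adjusted p was 0.0515 to 0.146, and the call was also lost with quantile normalization (0.0746) and with the 16.113 arrays alone (0.344).

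A dimmer probe set of Igfbp3, 17260475, separated the groups. It read 10.87, 10.77 and 11.38 with competent T cells, against 12.34, 12.24, 11.99, 12.27 and 12.39 with deficient T cells. The change of -1.24 ± 0.18, 2.36-fold lower, was called (adjusted p = 0.000725), where 4.04% of all probe sets were, and Igfbp3 kept at least 1 called probe set in each of the 8 fits without 1 array. Which probe set that was is not given, so this does not show how stable the call of 17260475 was. By the mean of its 6 probe sets Igfbp3 changed by -0.64 ± 0.16 (adjusted p = 0.0129), and this was called in 6 of those 8 fits, not without competent replicate 1 or 2 (0.0668 and 0.0734), nor with the 16.113 arrays alone (0.0951). In the MCA313 and J558L tumours all 6 were lower at 24 h and in MCA313 at 48 h, with medians of -0.28 to -0.20 and no call, at levels of 13.85 to 14.04 for the brightest. For a gene with so few probe sets, too, no share over all genes is given.

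**Figure D4:**
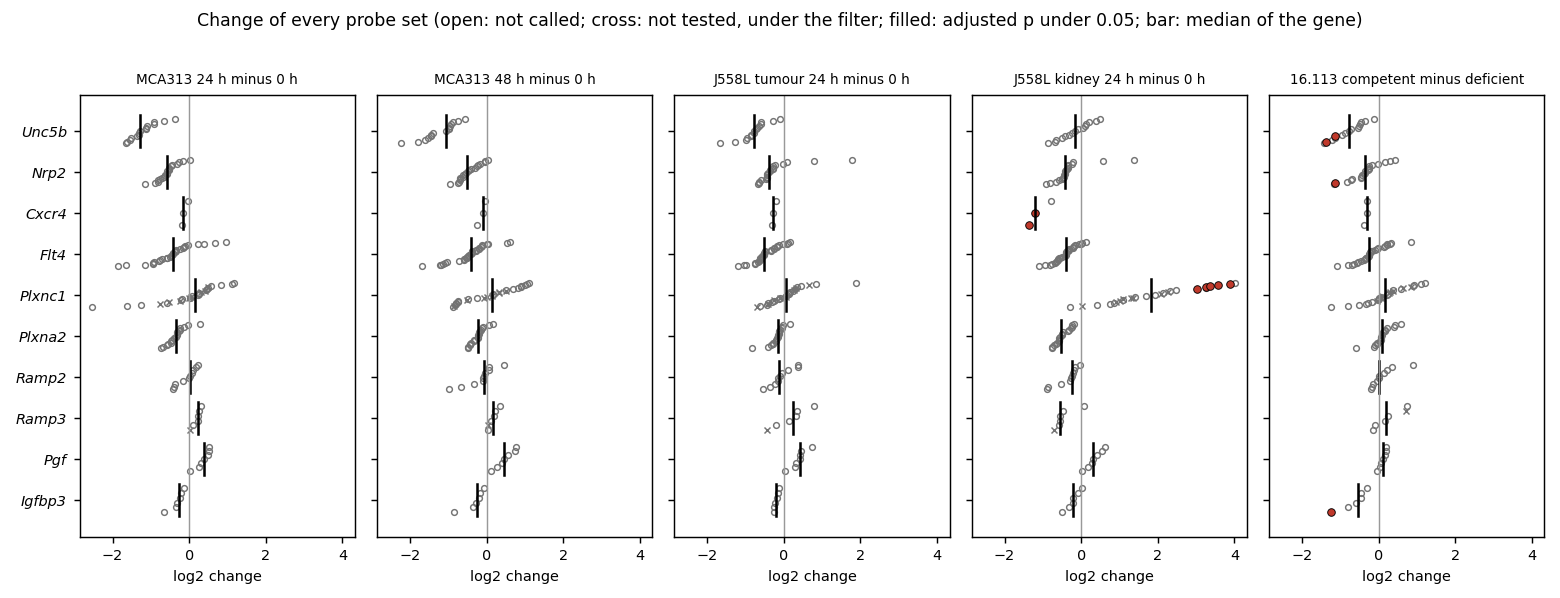
Change on the log2 scale of each of the 140 probe sets of the 10 genes in the 5 comparisons, one point a probe set and a black bar for the median of the gene. Filled points were called (adjusted p under 0.05), open points were not, and crosses were not tested. The filled points are 5 of Plxnc1 (higher) and 2 of Cxcr4 (lower) in kidney and 2 of Unc5b, 1 of Nrp2 and 1 of Igfbp3 (all lower) in 16.113. Of the 5 of Plxnc1, 3 passed the filter only through the kidney arrays at 24 h and carry no weight.

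Counted over probe sets, members had 7 calls of 131 tested in kidney, 5 higher and 2 lower, where 1.32% of all probe sets were called, 0.683% higher and 0.637% lower. The 5 are those of Plxnc1, of which 2 passed the filter without the kidney arrays at 24 h. The other 3 carry no weight, so the count of 7 is no fair match to the 1.32%. They had 4 calls in 16.113, all lower, where 4.04% of all probe sets were called and 2.7% lower. They had none at 24 h and 48 h in MCA313 and none in J558L tumours, where 0.16%, 0.322% and 0.142% of all probe sets were called. At an unadjusted p under 0.05, 28 and 21 of the 131 passed at 24 h and 48 h in MCA313 (27 and 20 of them lower), 13 in J558L tumours (11 lower), 33 in kidney (19 lower) and 24 in 16.113 (22 lower). Such a p was met by 9.25%, 10.4%, 5.94%, 11.4% and 18.5% of all 39400 probe sets in these comparisons. The 131 tested include 6 probe sets of Plxnc1 that passed the filter only through the kidney arrays at 24 h. The 33 in kidney can include these, so that count, too, is no fair match to the 11.4%. Between 48 h and 24 h in MCA313 no member or member probe set was called, where 0.0684% of all genes and 0.0254% of all probe sets were. None of the 3 comparisons of responses (tumour against kidney, and J558L tumour against each other model) called a member by the brightest probe set, where at most 0.0228% of all genes were called.

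Neighbours of the members in their pathways were taken from lists, of which the table held a part. Of 10 VEGF ligands and receptors listed, the 3 measured were Flt4, Nrp2 and Pgf. Of 22 netrin and slit ligands and receptors 5 were measured, and none but Unc5b was called by the brightest probe set. Ntn1, a netrin ligand, stood at +0.93 and +0.85 at 24 h and 48 h in MCA313, but at +0.31 and +0.23 without 0 h replicate 1. It stood at +1.09 in J558L tumours, +0.60 without 0 h replicate 1 there, and at -0.47 in kidney and +0.25 in 16.113. Ntn4, the other netrin measured, stood at -0.30 and -1.22 at 24 h and 48 h in MCA313, -0.05 in J558L tumours, -0.76 in kidney and -0.12 in 16.113. Of 31 semaphorins and plexins 4 were measured, and of 22 ephrins and Eph receptors 3, with none called by the brightest probe set in the 5 comparisons. Sema4c, a semaphorin of class 4, stood at -0.98 and -1.14 at 24 h and 48 h in MCA313. In J558L tumours it stood at -0.11, in kidney at -0.14 and in 16.113 at -0.41.

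Of 11 genes of the adrenomedullin and CGRP system 4 were measured, and Gpr182, an orphan receptor of endothelium related to chemokine scavengers, was called lower at 48 h in MCA313. It read 6.23, 6.62 and 5.35 at 0 h, and 4.52 and 4.69 at 48 h (-1.47, adjusted p = 0.0493), with the 48 h values below the array medians. Of 12 genes of the insulin-like growth factor system 6 were measured, and Igfbp4, a binding protein like Igfbp3, was called lower in kidney. It read 10.10, 9.70 and 10.64 at 24 h, against 11.14, 11.64 and 12.12 at 0 h (-1.49, adjusted p = 0.0367). The decrease was not particular to kidney. In MCA313 tumours the group means of Igfbp4 were 12.03, 11.16 and 10.90 at 0 h, 24 h and 48 h. They were 11.17 at 24 h against 12.23 at 0 h in J558L tumours, and 10.92 with competent against 11.64 with deficient T cells. Ackr3, the scavenging receptor of Cxcl12, was the 1 other measured gene of that axis and stood at -0.73 to -0.28, with no call.

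Of 27 markers of tip cells 10 were measured, and 8, 7, 8, 8 and 9 of them had a change below 0 at 24 h and 48 h in MCA313, in J558L tumours, in kidney and in 16.113. The list's median changes were -0.12, -0.06, -0.16, -0.21 and -0.27, beside medians of -0.03 to 0.01 over all genes tested. Among the 2353 genes with at least 10 probe sets, 55.6% to 59.6% had a median change below 0 in these comparisons. That share rests on the median over all probe sets of a gene, and the counts of the list on the brightest probe set. It is therefore no matched baseline for those counts. All of the 10 but Lama4, Nid1 and Cd34 are members, so the counts of the list are no separate evidence. Lama4, a laminin chain of the vessel basement membrane, was called lower in kidney, where it read 10.39, 10.45 and 10.36 at 24 h, against 11.97, 11.82 and 11.34 at 0 h (-1.31, adjusted p = 0.000129).

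Of 18 genes of stalk cells and Notch signalling 2 were measured. Id2, an inhibitor of helix-loop-helix transcription factors, was called higher in MCA313 and J558L tumours. In MCA313 it read 7.97, 8.68 and 8.63 at 0 h, 10.36 and 10.44 at 24 h, and 10.75 and 10.25 at 48 h. In J558L tumours it read 10.55, 10.57 and 10.29 at 24 h, against 8.65 and 8.50 at 0 h. The groups were far apart, with changes of +1.97, +2.07 and +1.90. In kidney and 16.113 tumours it stood at +0.55 and +0.63, not called.

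Across the 26 arrays, after the mean of each set was taken away, some genes followed the members closely. These correlations describe arrays that share groups, sets and amplification, and carry no test. Unc5b was most like Anxa6 (r = 0.884) and Pes1 (0.882), and among the members most like Nrp2 (0.742). Flt4 was most like Ifi27 (0.897) and Cdk2ap1 (0.885), Nrp2 like Uck2 (0.833) and Wscd1 (0.83), and Cxcr4 like Gdpd1 (0.843) and Slc29a3 (0.812). Igfbp3 was most like Zfp938 (0.792) and Tmc8 (0.768), Ramp2 like Oaz1 (0.771) and Tcn2 (0.748), and Ramp3 like C1d (0.729) and Rab32 (0.728). For Plxna2 the nearest were Cavin2 (0.722) and Abr (0.663), for Pgf Mier2 (0.715) and Gm19911 (0.709), and for the brightest probe set of Plxnc1 Spred2 (0.699) and Pctp (0.689).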

How the data were processed

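Complementary DNA from about 500 pg of RNA a sample was made with the WT Pico kit of Affymetrix, with 12 amplification cycles, per the labels' protocols. The values used are the log2 expression values per probe set as deposited by the authors. The submitters' processing notes list limma and Affymetrix Expression Console, and no method of normalization is given in the sources used here. Values of the 65535 probe sets ran from 1.40 to 14.34. Probe sets were named by the platform annotation, and 766 with several symbols and 10912 with none were not used. Symbols were current in RefSeq (GRCm38.p6) for 4618 genes.

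A gene was kept if its probe set with the highest mean over the 26 arrays exceeded the array median in at least 2 arrays, which left 4386 genes, and the same rule left 39400 probe sets. Means of 9 groups were fitted with limma 3.58.1 (statmod 1.5.0 in R 4.3.3) to the 26 arrays together. Tests were two-sided and moderated, with Benjamini-Hochberg adjustment over all genes or probe sets of a comparison at 0.05. All groups shared the spread because several hold 2 arrays. The fit was tested on simulated data. The mean of all probe sets of a gene, the filters, quantile normalization, the variance prior, array weights, a replicate block, the sets alone and each array left out were alternatives. Named were all members, up to 4 listed genes past the test by size, check genes of IFNγ, and the 2 genes most like each member. Genes named without a call were chosen after their values were seen. The members and lists were chosen with earlier results of these data known. The number of arrays limits the precision.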

Additional observations from a re-analysis of the deposited data

Results flagged for a closer look

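In 16.113 tumours with IFNγ deficient T cells, Flt4 read 12.78 in replicate 2 and 12.89 to 12.94 in the other 4 arrays. The gap between replicate 2 and its nearest neighbour was 0.718 of the range of the group, above the limit for 5 arrays. Chance alone sets apart about 1 in 20 groups in this way, and the whole range is small.

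The response of Plxnc1 to 24 h of IFNγ-GFP differed between J558L tumour and kidney by the mean of its probe sets (limma, adjusted p = 0.0485), at +0.08 ± 0.30 in the tumour and +1.89 ± 0.27 in kidney. It was lost in 9 of 11 fits without 1 array, with quantile normalization (0.0536), the replicate block (0.0507), the median of the probe sets (0.12) and the J558L arrays alone (0.174), and the tumour values lie below the array medians. The cause was not tested.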

How the results depend on the processing

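Of 1390 results on members under the other settings, 20 lost a call and 6 gained one. The sign changed in 104, of which 10 moved by over 1 standard error without a call and 2 had a call on 1 side. Both of these came with the mean of all probe sets and were those of Plxnc1, +1.89 in kidney and -1.81 for the response of the tumour minus that of kidney. The count of called members under that mean was 1 at 24 h and 1 at 48 h in MCA313, 2 in kidney and 1 for tumour minus kidney. It was 1 in MCA313 at 48 h with a trended variance prior and 1 in J558L tumours (Flt4) with array weights. In 16.113 it was 1 with no filter, 0 with quantile normalization, 1 with array weights and 0 with the 16.113 arrays alone, and in kidney it was 0 with the kidney arrays alone. Without 1 array the counts ran from 0 to 2 in MCA313 at 48 h and from 0 to 1 in 16.113.

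Counts of called probe sets of members were 1 at 48 h in MCA313 with a stricter filter, with a trended prior or with array weights, and 2 in J558L tumours with array weights. They were 11 in kidney with array weights and 0 alone, and in 16.113 they were 9 with a stricter filter, 10 with a trended prior, 1 with array weights and 0 alone. Without 1 array they ran from 0 to 1 at 24 h in MCA313 and in J558L tumours, 2 to 6 in kidney and 2 to 9 in 16.113. The kidney counts can include probe sets of Plxnc1 that passed the filter only through the kidney arrays at 24 h. Further alternatives to the mean of probe sets, added after the data were seen, made 29 of 1300 values lose a call and 3 gain one. There the Unc5b call at 24 h in MCA313 was lost with the median of the probe sets (adjusted p = 0.131), as was that in 16.113 (0.0735, and 0.141 with array weights). Over all genes, calls numbered 127 with array weights against 24 in J558L tumours, 77 against 323 in 16.113 and 60 against 30 at 24 h in MCA313. With each set alone they numbered 1 and 4 at 24 h and 48 h in MCA313, against 30 and 60, 67 against 139 in kidney and 34 against 323 in 16.113. The cause of these shifts was not tested.

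Replicate numbers did not pair the arrays, since same-numbered arrays deviated with correlations of -0.144 to 0.113. With the replicate number as a block (correlation -0.053), Cxcr4 in kidney stood at -1.37 with adjusted p = 0.00213, and Unc5b and Igfbp3 in 16.113 at -0.78 and -0.45 (0.0473 and 0.0403). By the mean of probe sets the block took the call of Plxnc1 between tumour and kidney (0.0507). Levels below the array medians, as for most probe sets of Plxnc1 outside kidney at 24 h, leave the size of a change uncertain.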
